A study of Mus musculus with 45 samples.

Results

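Cytokine and growth factor receptor chains, namely Il4ra, Il13ra1, Il2rg, Ifngr1, Ifngr2, Ifnar1, Ifnar2, Il10ra, Csf1r and Csf2rb, were followed in bone marrow-derived macrophages. The 10 genes were chosen by name as receptors for interleukin-4 (IL-4), interferons, IL-10 and colony-stimulating factors, and all 10 were found among the 29307 genes of the count table and the 11900 genes of the deposited CPM table. The cells came from C57BL/6N mice of 6 to 10 weeks that carried 1 of 3 variants of Famin (Lacc1), a purine-metabolizing enzyme: p.254I, p.254V or p.284R, with 5 mice each. Marrow was cultured for 6 days with M-CSF (CSF1), and the macrophages were then left unstimulated for 24 h (M0), exposed to 50 ng/mL IFN-γ with 20 ng/mL LPS (M1) or exposed to 20 ng/mL IL-4 (M2). This gave 45 libraries, 5 for each of the 9 pairs of genotype and polarization and 15 for each polarization, and every group had therefore seen M-CSF. The mice were bred from heterozygotes and littermates were used, and each group carried a named Famin variant. The Famin variants are coding changes, so gene counts could not check the genotype labels.

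Receptors of this kind are assembled from chains. IL-4 binds IL-4Rα (Il4ra), which signals together with the common γ chain (Il2rg) or with IL-13Rα1 (Il13ra1), mainly through STAT6. IFN-γ signals through IFNGR1 and IFNGR2, type I interferons through IFNAR1 and IFNAR2, and IL-10 through IL-10Rα (Il10ra) with the widely used chain IL-10Rβ (Il10rb), all by way of JAK kinases and STAT factors that SOCS proteins restrain. CSF1R is the receptor tyrosine kinase on which macrophages depend for survival, and CSF2RB is the common β chain of the receptors for GM-CSF, IL-3 and IL-5. The stimuli given here therefore engage some of the very receptors that were measured.

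Total counts ranged from 17239009 to 43740283 reads per library (median 27553642), so that Il13ra1, the rarest of the 10 chains, still had 81 to 1360 reads. Macrophage markers such as Adgre1 and Lyz2 were abundant in every library. The 7 markers analysed summed to 17406 to 29309 CPM in M0, 9735 to 13330 CPM in M1 and 7678 to 11180 CPM in M2. Lyz2 made up much of these sums. It measured 9815 to 23167 CPM in M0, 4504 to 8029 CPM in M1 and 4051 to 7230 CPM in M2. The markers did not move alike. Fcgr1 measured 293 to 1098 CPM in M0, 1064 to 1387 CPM in M1 and 34.8 to 153 CPM in M2. The 8 M1 markers summed to 11533 to 17210 CPM in M1 and at most 290.6 CPM elsewhere, although Il12b did not exceed 0.201 CPM nor Il6 0.298 CPM, and the 8 M2 markers summed to 5320 to 15075 CPM in M2 and at most 915 CPM elsewhere. Of other cell types, the 6 T and NK cell markers reached 1.32 CPM, the 5 mast cell and basophil markers 0.274 CPM and the 4 erythroid markers 0.0426 CPM, B cell markers reached 11.8 CPM, nearly all of it Cd79b, and stromal and endothelial markers 98.8 CPM. Neutrophil and precursor markers summed to 26.1 to 281 CPM in M0, 40.9 to 135 CPM in M1 and 16.1 to 73.1 CPM in M2, with Ly6g at or below 0.461 CPM. Dendritic cell markers moved with M1, at 209 to 432 CPM against at most 14.1 CPM in M0 and M2, and nearly all of this was Clec9a. The part of these marker lists in the results was not tested.

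The first question was how the receptor chains differed between polarizations. In M1, Il2rg, Il4ra, Il13ra1 and Il10ra rose and Csf1r, Ifngr1, Csf2rb and Ifnar1 fell, so 8 of 10 members changed, against 77.3% of the 12905 genes tested (37% higher and 40.3% lower). In M2, Csf2rb, Il2rg and Ifngr2 rose and the other 7 members fell, 10 of 10 against 76.4% of all genes (36.8% higher and 39.6% lower). Between M1 and M2, 5 members were higher in M1 and 5 lower, against 79.1% of all genes (39% higher and 40.1% lower). A change was called at an adjusted p under 0.05 in the quasi-likelihood test of edgeR, adjusted over all genes tested by the method of Benjamini and Hochberg. These shares lie near the background or rest on 10 genes, so the size of each change is described next. The median absolute log2 fold change of the members was 0.76 for M1 against M0 and 0.69 for M2 against M0, beside 0.38 and 0.35 over all genes tested. M1 and M2 were set against the same M0 libraries, so the 2 comparisons are not independent. In these bulk samples, fewer cells of a type and less RNA per cell cannot be told apart.

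**Figure D1:**
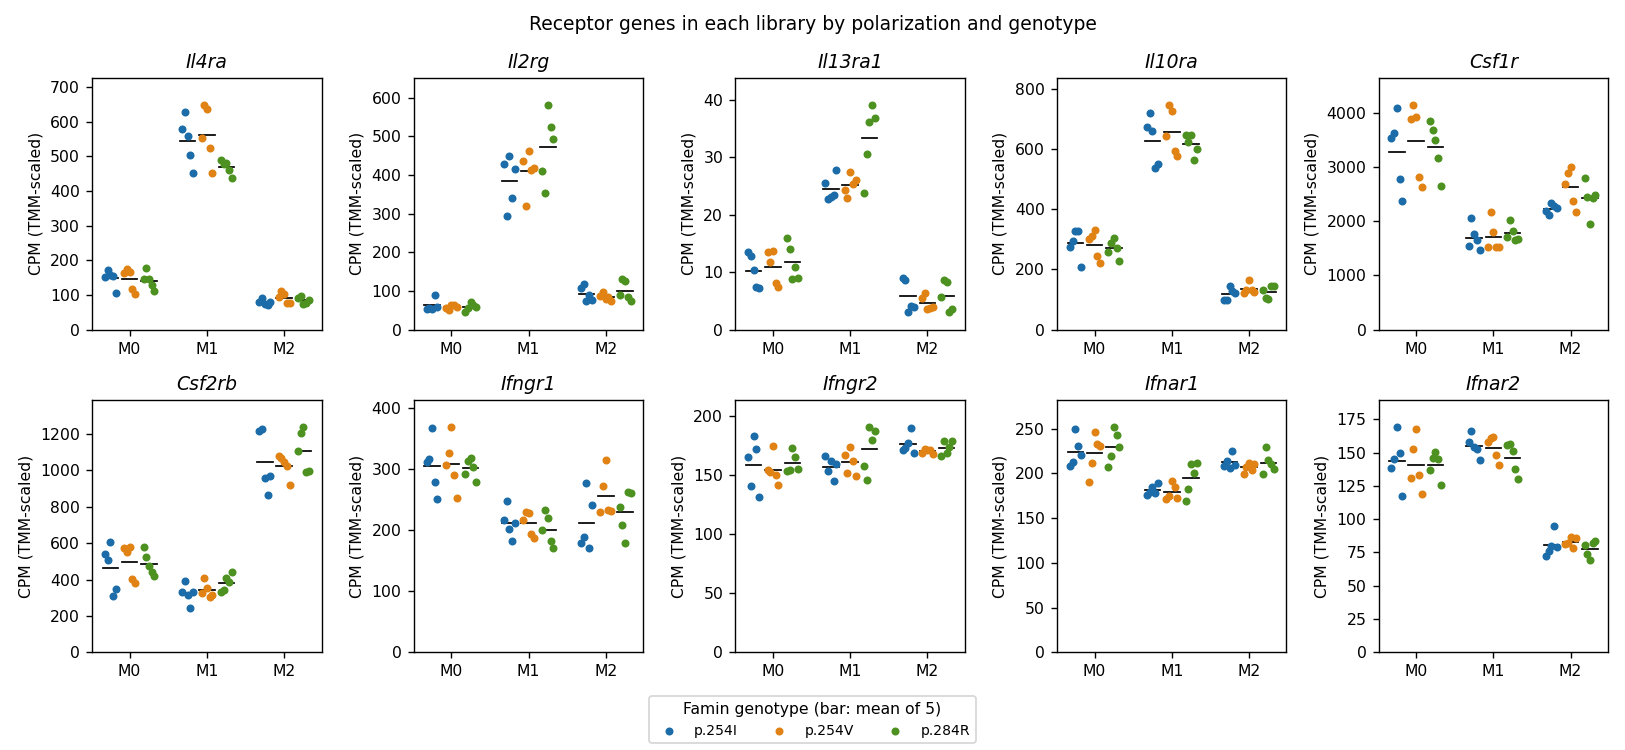
Each point is 1 library, in CPM with TMM scaling on a linear axis from 0, by polarization and by Famin genotype, and each bar is the mean of 5 mice. Il4ra, Il13ra1, Il2rg and Il10ra are highest in all M1 libraries, Csf2rb is highest in all M2 libraries, and Ifngr2 overlaps between the 3 polarizations.

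The chains of the IL-4 and IL-13 receptors moved most in M1. Il4ra (chromosome 7, 125552120 to 125579474, plus strand, mm10) had a lowest, median and highest level of 104, 151 and 179 CPM in the 15 M0 libraries, 438, 503 and 648 CPM in M1, and 70.7, 80.3 and 111 CPM in M2. No M1 library overlapped either other state, whereas the highest M2 library reached into the M0 range. Il4ra thus rose 3.61-fold in M1 (log2 fold change 1.85, SE 0.08, adjusted p = 3.0e-23, edgeR) and fell by 0.76 on the log2 scale in M2 (SE 0.08, adjusted p = 2.6e-11). Cultures that shared a mouse gave the same direction in 15 of 15 mice for each comparison. The chain that binds IL-4 was therefore lowest in the cells that had been given IL-4 and highest in those given IFN-γ and LPS, 6.13-fold apart.

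Il2rg (chromosome X, 101264378 to 101268255, minus strand), the γ chain shared by the receptors for IL-2, IL-4, IL-7, IL-9, IL-15 and IL-21, showed the largest change of the 10 genes. Its lowest, median and highest levels were 46.9, 58.3 and 90.5 CPM in M0, 294, 417 and 581 CPM in M1, and 73.8, 86.3 and 130.05 CPM in M2. M1 stood clear of both other states, and M2 overlapped M0 only through its lower libraries and the highest M0 library. The rise was 6.99-fold in M1 (log2 2.80, SE 0.10, adjusted p = 1.8e-26) and 1.54-fold in M2 (log2 0.62, SE 0.09, adjusted p = 1.3e-07). In M1 the gene was higher in 15 of 15 mice, and in M2 in 14 of 15, with a ratio of 0.988 in the remaining mouse. The partner chains Il4ra and Il2rg therefore moved in opposite directions in M2. T and NK cells also use this chain, and their markers Cd3e, Cd3d, Cd3g, Cd2, Ncr1 and Klrb1c stayed within the 1.32 CPM given above.

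Il13ra1 (chromosome X, 36112110 to 36171259, plus strand), which pairs with IL-4Rα in the receptor for both IL-4 and IL-13, was present at a far lower level. It measured 7.19, 10.95 and 15.97 CPM (lowest, median, highest) in M0, 22.8, 25.4 and 39.1 CPM in M1, and 3.14, 4.08 and 9.05 CPM in M2. All M1 libraries lay above all M0 and M2 libraries, and M2 overlapped the lower M0 values. The gene rose 2.50-fold in M1 (log2 1.32, SE 0.15, adjusted p = 1.0e-10) and fell by 1.02 on the log2 scale in M2 (SE 0.15, adjusted p = 1.4e-07), in 15 of 15 mice each. Its spread between mice was the widest among the members, with a median coefficient of variation of 27.1% over the 9 groups, beside 11.5% for all genes tested.

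Il10ra (chromosome 9, 45253837 to 45269149, minus strand), the ligand-binding chain for the anti-inflammatory cytokine IL-10, was the member whose 3 states all stood apart. Its lowest, median and highest levels were 208, 287 and 329.7 CPM in M0, 535, 643 and 746 CPM in M1, and 97.4, 129 and 166 CPM in M2. No library of any state overlapped another state. Il10ra rose 2.27-fold in M1 (log2 1.18, SE 0.07, adjusted p = 3.7e-18) and fell by 1.14 on the log2 scale in M2 (SE 0.07, adjusted p = 2.5e-17), in 15 of 15 mice each. Its partner Il10rb, no member but the second chain of the receptor, went down in both states, with log2 fold changes of -0.62 in M1 (SE 0.04, adjusted p = 2.2e-17) and -0.19 in M2 (SE 0.04, adjusted p = 4.4e-05). Per kb of exon, the ratio of Il10ra to Il10rb had a median of 1.25 in M0, 4.36 in M1 and 0.648 in M2, with ranges that did not overlap.

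**Figure D2:**
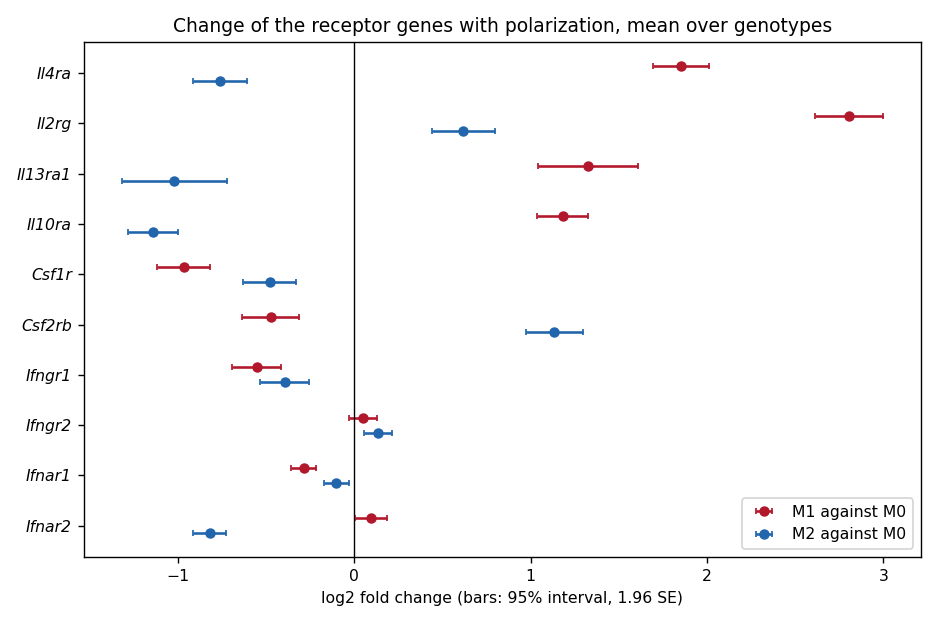
Log2 fold changes of the 10 receptor genes for M1 against M0 (red) and M2 against M0 (blue), as means over the 3 genotypes with 15 libraries a state, with bars that span the 95% interval. Il4ra, Il13ra1 and Il10ra lie on opposite sides of 0 in the 2 states, Il2rg lies above 0 in both, and the interval of Ifngr2 in M1 includes 0.

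The 4 interferon receptor chains moved less than the interleukin receptor chains, apart from Ifnar2 in M2. Ifngr1 (chromosome 10, 19591949 to 19610229, plus strand), the ligand-binding chain for IFN-γ, measured 251, 307 and 369 CPM (lowest, median, highest) in M0, 171, 212 and 248 CPM in M1, and 171, 233 and 316 CPM in M2. M0 and M1 did not overlap, whereas M2 spanned much of both. It fell by 0.55 on the log2 scale in M1 (SE 0.07, adjusted p = 4.2e-09) and by 0.39 in M2 (SE 0.07, adjusted p = 4.0e-06), in 15 of 15 mice each. The difference between M1 and M2 was small, at -0.16 on the log2 scale (SE 0.07, adjusted p = 0.040), and M1 was the lower in 10 of 15 mice. This call was lost without the p.254I mouse of replicate 3 or 5, the p.254V mouse of replicate 2 or 3, or the p.284R mouse of replicate 1, 4 or 5 (adjusted p between 0.0604 and 0.139).

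Ifngr2, the second chain of the same receptor, moved little by comparison. It measured 132, 155 and 183 CPM in M0, 145, 162 and 190.3 CPM in M1, and 167, 171 and 189.9 CPM in M2, and the 3 states overlapped. The log2 fold change was 0.05 in M1 (95% interval -0.03 to 0.13, adjusted p = 0.26), which did not pass the threshold, and 0.14 in M2 (SE 0.04, adjusted p = 0.0026), where 12 of 15 mice were higher. M1 was lower than M2, with a log2 difference of -0.09 (SE 0.04, adjusted p = 0.049, edgeR), a call lost without the p.254I mouse of replicate 1, 2 or 4, the p.254V mouse of replicate 1, 2, 4 or 5, or the p.284R mouse of replicate 1, 2 or 5 (adjusted p between 0.052 and 0.192). Polarization accounted for 23.7% of the variance of its log2 CPM, the least among the members, beside a median of 68.4% over all genes tested. The ratio of Ifngr1 to Ifngr2 per kb had a median of 2.53 in M0, 1.68 in M1 and 1.83 in M2.

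Ifnar2, whose product binds type I interferons with high affinity, had levels of 117, 145 and 169 CPM in M0, 129.98, 154 and 166 CPM in M1, and 69.4, 80.3 and 94.6 CPM in M2. M0 and M1 overlapped, and all M2 libraries lay below both. It fell by 0.82 on the log2 scale in M2 (SE 0.05, adjusted p = 6.7e-19) in 15 of 15 mice. In M1 the log2 fold change was 0.10 (SE 0.05, adjusted p = 0.056), short of the threshold, with 12 of 15 mice higher, and it passed with the mouse as a replicate block (adjusted p = 0.033). It also passed without the p.254I mouse of replicate 1, 3 or 4, the p.254V mouse of replicate 2 or 3, or the p.284R mouse of replicate 2, 4 or 5 (adjusted p between 0.018 and 0.0496).

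Ifnar1, the partner chain, went down in both states but by little. Its lowest, median and highest levels were 191, 229 and 252 CPM in M0, 169.6, 183 and 212 CPM in M1, and 199.7, 209 and 229.7 CPM in M2. All 3 states overlapped. The log2 fold change was -0.29 in M1 (SE 0.04, adjusted p = 1.9e-09, lower in 15 of 15 mice) and -0.10 in M2 (SE 0.04, adjusted p = 0.0097, lower in 12 of 15). The call in M2 was lost without the p.254I mouse of replicate 3, where the log2 fold change was -0.08 and the adjusted p 0.056 (edgeR). It held in the other 22 alternatives described below. The ratio of Ifnar1 to Ifnar2 per kb consequently ran from a median of 0.847 in M0 to 0.662 in M1 and 1.44 in M2, and the M2 range of 1.33 to 1.74 overlapped neither other state.

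Ifnar2 (91372783 to 91405589), Ifnar1 (91485238 to 91507441) and Ifngr2 (91547072 to 91565623), with Il10rb between the first and the second of them, are neighbours on the plus strand within 192.8 kb of chromosome 16. Neighbours in this cluster did not share a pattern, since in M2 Ifnar2 and Il10rb fell, Ifnar1 fell slightly and Ifngr2 rose slightly. Part of the Ifngr2 promoter is shown because, among the members, it held the only matches to 3 short motifs tied to the signals used here, searched on both strands in 250 bases before to 50 bases after the gene start in RefSeq (GRCm38.p6), where 7 of 10 members were matched (not Il10ra, Csf1r or Csf2rb). The motifs were a STAT6 element (TTC, any 4 bases and GAA, present in 6.95% of 32851 promoters), ISRE, the element of type I interferon (GAAA, any 2 bases and GAAA, 3.44%), and κB, the NF-κB element (GGGA, any base, TT, any base and CC, 1.2%). Each match is given with 8 bases on either side and the motif in capitals, 5′ to 3′ on the plus strand.
Ifngr2, STAT6 element at chr16:91546968-91546977: ggccgcggTTCCCGGGAAcaccgggg
Ifngr2, κB at chr16:91546984-91546993: aacaccggGGAAAGTCCCcacgggcc
The κB letters lie on the minus strand, so the capitals show the reverse complement of that motif. The matches began 91 and 75 bases before the start of Ifngr2. The other 6 promoters matched held none of the 3 letter strings in this window. Ifngr2 was the member with the smallest log2 fold change in M1, at 0.05, and a match describes the letters only.

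The growth factor receptors changed in different ways. Csf1r, the receptor for the M-CSF in which the cells had grown, was by far the most abundant member, with a lowest, median and highest level of 2382, 3541 and 4146 CPM in M0, 1471, 1665 and 2169 CPM in M1, and 1956, 2366 and 2992 CPM in M2. All M1 libraries lay below all M0 libraries, and M2 overlapped both. It fell by 0.97 on the log2 scale in M1 (SE 0.08, adjusted p = 1.1e-14) and by 0.48 in M2 (SE 0.08, adjusted p = 5.0e-07), in 15 of 15 mice each. Hmgxb3, a gene on the opposite strand, overlaps it and had 561 to 1432 reads, at most 2.18% of the reads of both genes, and whether counting used the strand is not given in the sources used here.

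Csf2rb (chromosome 15, 78325752 to 78353847, plus strand) was the member that rose most in M2. It measured 311, 509 and 607 CPM (lowest, median, highest) in M0, 246, 332 and 439 CPM in M1, and 868, 1045 and 1237 CPM in M2. The M2 libraries stood clear of all others, and M0 and M1 overlapped. Csf2rb rose 2.196-fold in M2 (log2 1.13, SE 0.08, adjusted p = 1.7e-15, 15 of 15 mice) and fell by 0.47 on the log2 scale in M1 (SE 0.08, adjusted p = 2.6e-06, 14 of 15 mice). Csf2rb2, the adjacent paralog that encodes an IL-3-specific β chain, stood at 0.17 on the log2 scale in M2 (SE 0.06, adjusted p = 0.015) and -0.84 in M1 (SE 0.06, adjusted p = 8.5e-16). Of the 50-base windows of Csf2rb transcripts, 12.3% also occur in Csf2rb2, so the split of reads between these genes is uncertain. Of the windows of Il2rg 27.5% also occur in Gm20489, of those of Il4ra 8.44% in Gm44876 and of those of Ifnar2 7.89% in Gm21970, genes with at most 1, 4 and 0 reads in any library. Of those of Il10rb 13.6% also occur in Gm21970. How reads in such shared windows were counted is not given in the sources used here. The levels per kb and the chain ratios of these receptor genes carry that uncertainty. Csf2ra, the specific chain of the GM-CSF receptor, was also higher in M2 (log2 0.80, SE 0.06, adjusted p = 2.7e-16), and its log2 fold change was 0.06 in M1 (adjusted p = 0.28).

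Counted over the members, M1 and M0 did not overlap in 6 of 10 genes, M2 and M0 in 3 and M1 and M2 in 6, where the shares over all genes tested were 28.6%, 23.4% and 35.7%. Polarization accounted for 96.3% of the variance of log2 CPM in Il4ra, 95.9% in Il2rg and 96.1% in Il10ra, for 92.2% in Ifnar2 and 90.2% in Csf2rb, and for between 59.6% and 85.4% in the others apart from Ifngr2.

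Levels were compared between genes as CPM per kb of exon. Csf1r was highest and Il13ra1 lowest in every state, at 585 ± 102 and 2.95 ± 0.775 CPM per kb in M0 (SD, n = 15), and neither overlapped its neighbour in the order. Between them in M0 came Ifngr1 (107 ± 11.9), Il10ra, Csf2rb, Ifnar2, Ifngr2, Ifnar1, Il2rg and Il4ra (24.2 ± 4.32), each overlapping the next in its range over libraries. In M1 the order after Csf1r (299 ± 37.2) was Il10ra (181 ± 18.5) and Il2rg (177 ± 31.9), which overlapped, then Il4ra (87.5 ± 11.9), so that Il2rg moved from the eighth place to the third. In M2 Csf2rb came second at 146 ± 16.2 CPM per kb, clear of Csf1r (420.3 ± 51.8) above and Ifngr1 (81.8 ± 14.7) below. Il4ra came ninth in M2 at 14.3 ± 2.02 CPM per kb, below and clear of Ifnar2 (24.1 ± 1.87).

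**Figure D3:**
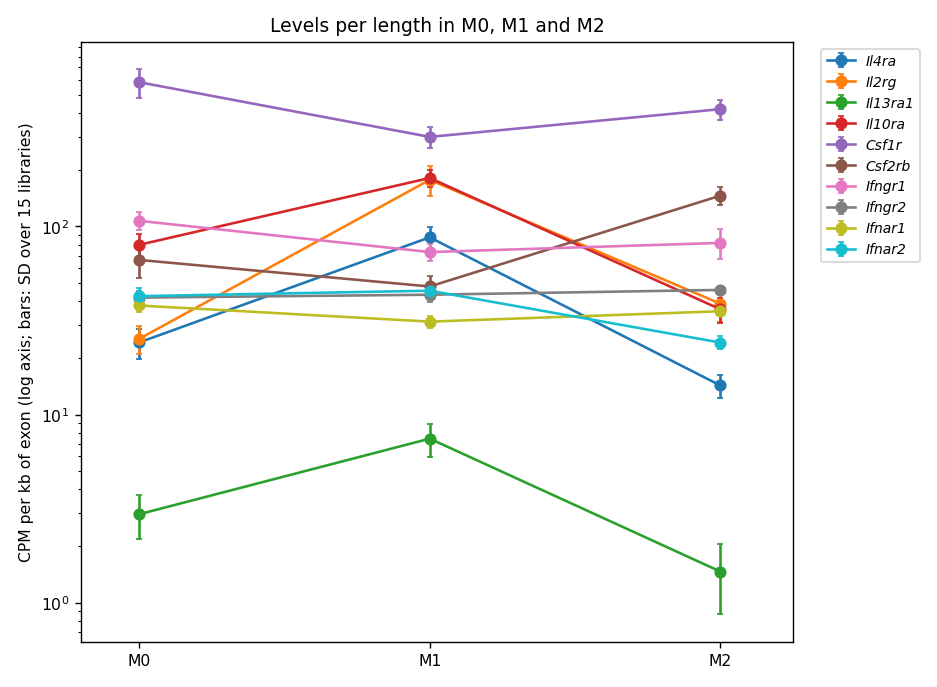
Mean level of each receptor gene per kb of exon in M0, M1 and M2 on a log axis, with bars for the SD over 15 libraries. Il2rg, Il4ra and Il10ra climb in M1, Csf2rb climbs in M2, and Csf1r stays at the top and Il13ra1 at the bottom.

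The balance between partner chains followed from these levels. Il4ra and Il2rg stood at a ratio of 1.04 per kb in M0 (median over 15 libraries), 0.504 in M1 and 0.400 in M2, with ranges of 0.680 to 1.39, 0.329 to 0.849 and 0.233 to 0.508 that overlapped between M0 and M1 and between M1 and M2. The ratio of Il4ra to Il13ra1 had medians of 8.32, 12.8 and 10.8 in M0, M1 and M2, with overlapping ranges. Csf1r exceeded Csf2rb 8.68-fold per kb in M0, 6.29-fold in M1 and 3.08-fold in M2, and the M2 range of 1.99 to 3.61 lay below both others. These are ratios of RNA reads per length, and surface protein was not measured in these files.

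Within a polarization, the members varied with the replicate number that the libraries of the 3 genotypes share in their labels. In M0 the number accounted for 81.7% of the variance of a member's log2 CPM (median of 10 genes, range 57.8% to 90.3%) and the genotype for 2.46%, beside medians of 61.2% and 4.60% over all genes tested. In M1 the medians over members were 57.1% for the number and 21.6% for genotype, beside 50.04% and 10.3% over all genes. In M2 they were 34.3% and 13.3%, beside 48.0% and 8.29%. For the number, the members thus lay above all genes in M0 and M1 and below them in M2. Without any difference between numbers or genotypes, shares of 28.6% for the number and 14.3% for genotype are expected. The number in M2 and genotype in M2 lay near these shares, and genotype in M0 lay below. What the number stands for is not given in the sources used here. Csf1r and Csf2rb were singled out after their values were seen, because in M0 their libraries of numbers 4 and 5 did not overlap those of numbers 1, 2 and 3. In M0 the 6 libraries of numbers 4 and 5 had 2382 to 3168 CPM of Csf1r, and the 9 libraries of numbers 1, 2 and 3 had 3499.5 to 4146 CPM. Csf2rb likewise had 311 to 442 CPM in the former and 474 to 607 CPM in the latter. Il4ra was lowest in number 5, at 104 to 111 CPM against 117 to 179 CPM in the other numbers.

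The summed macrophage markers, of which Lyz2 was a large part, moved with the same numbers in M0. They measured 17406 to 22061 CPM in numbers 4 and 5 and 22539.9 to 29309 CPM in numbers 1, 2 and 3. Neutrophil and precursor markers measured 26.1 to 88.6 CPM in the former and 61.4 to 281 CPM in the latter. The part of these marker lists in the difference was not tested. The large polarization differences held in each number, since the M1 to M0 ratio of means ran from 3.33 to 4.20 for Il4ra, 5.84 to 8.17 for Il2rg and 2.002 to 2.64 for Il10ra. For Csf2rb the M2 to M0 ratio ran from 1.95 to 2.52. Ifnar1 in M2 did not keep its direction, with ratios to M0 of 0.847 to 1.011, lower in 3 of 5 numbers, and Ifngr2 in M2 had ratios of 0.976 to 1.20. Between M1 and M2, Ifngr1 had ratios of 0.774 to 1.06 and Ifngr2 of 0.859 to 1.02, each lower in M1 in 4 of 5 numbers.

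**Figure D4:**
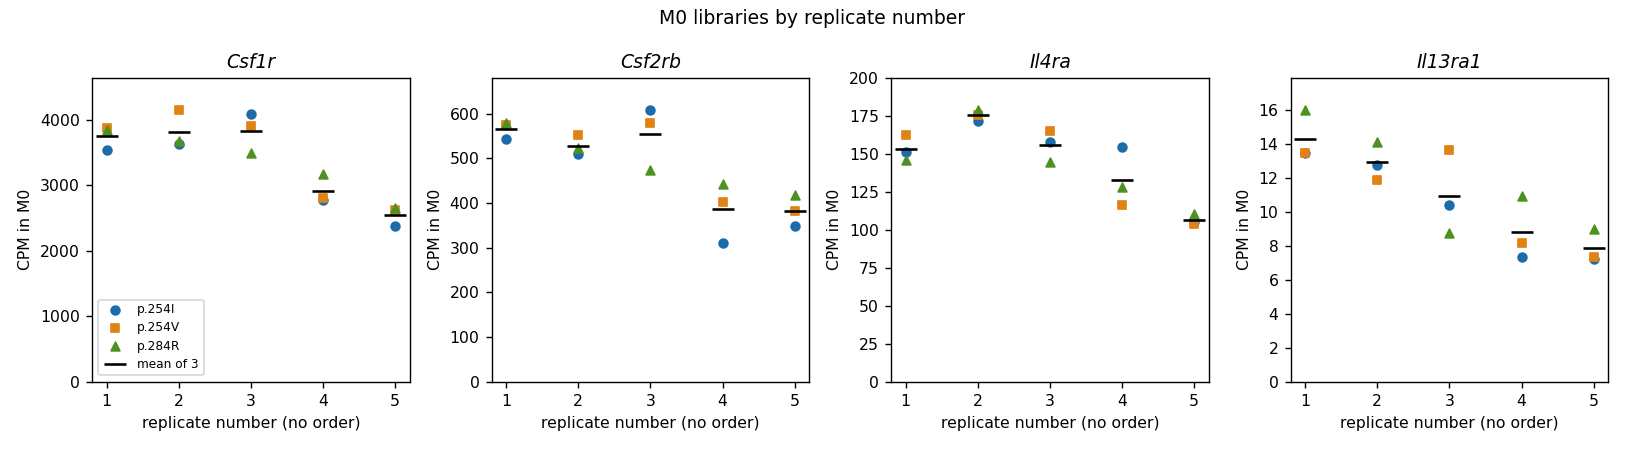
M0 levels in CPM (linear axes from 0) of 4 receptor genes by replicate number, with a symbol for the library of each Famin genotype and a bar for the mean of 3. In Csf1r and Csf2rb the libraries of numbers 4 and 5 lie below those of numbers 1, 2 and 3, whichever the genotype.

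The second question was whether the Famin variants changed the receptor chains. No member was called in any of the 9 comparisons between genotypes within a polarization, in the 3 on counts summed per mouse, or in the 4 tests of whether a genotype difference changed from M0 to M1 or M2. Over all genes, 0.263% were called for p.284R against p.254I in M1 (0.209% higher and 0.0542% lower), 0.0775% for p.284R against p.254V in M1, 0.00775% for p.284R against p.254I in M2 and 0% in the other comparisons, and 0 of 10 does not set the members apart from that background. At an unadjusted p under 0.05, edgeR gave 1 of 90 member tests within polarizations, 2 of 30 on summed counts and 0 of 40 for the change of the difference. These were 1.11%, 6.67% and 0% of the member tests, beside 2.58%, 2.05% and 1.36% of the same tests over all genes. Both hits on summed counts were Il13ra1. DESeq2 gave 2, 2 and 0 member tests, beside 2.67%, 2.29% and 1.44% over all genes. Of the member tests limma-voom gave 3, 2 and 0, beside 2.42%, 2.09% and 1.14%, and neither tool called a member. With the replicate number or mouse as a block these numbers were 10, 9 and 1, or 11.1%, 30% and 2.5% of the member tests, beside 4.34%, 7.33% and 2.20% of the same tests over all genes, again with no member called and a smallest adjusted p of 0.26, that of Il4ra for p.284R against p.254V in M1.

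Il13ra1 gave the largest genotype difference. In M1 its values were 25.4, 22.8, 23.1, 23.4 and 27.7 CPM in p.254I macrophages, 24.3, 22.8, 27.4, 25.3 and 26.1 CPM in p.254V, and 23.7, 30.6, 36.1, 39.1 and 36.8 CPM in p.284R. In p.284R 4 of the 5 libraries lay above every library of the other genotypes and 1 lay among them. The log2 difference of p.284R from p.254I was 0.44 (95% interval -0.04 to 0.92, adjusted p = 0.82, edgeR), and from p.254V 0.40 (95% interval -0.08 to 0.88, adjusted p = 0.94). On counts summed per mouse these differences were 0.26 (SE 0.11, unadjusted p = 0.027, edgeR) and 0.26 (SE 0.11, unadjusted p = 0.029, edgeR), and neither survived adjustment over all genes (adjusted p = 1.0 for both). The p.284R M1 libraries of replicates 3, 4 and 5 also stood apart in the marker lists. Their M1 markers summed to 16653, 16778 and 17210 CPM, against at most 13854 CPM in the other M1 libraries, and their M2 markers to 115, 87.6 and 73.5 CPM, against at least 137 CPM. The part of these lists in the genotype differences of Il13ra1 and Il4ra was not tested, and in the p.284R libraries of replicates 1 and 2 Il13ra1 was at 23.7 and 30.6 CPM.

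Il4ra in M1 measured 580, 628, 557, 503 and 453 CPM in p.254I, 552, 648, 637, 525 and 452 CPM in p.254V, and 489.7, 477, 481, 459.8 and 438 CPM in p.284R. The p.284R values filled a narrow band in the lower part of the range, and the lowest of them lay below every library of the other genotypes. Their log2 difference was -0.21 from p.254I (95% interval -0.48 to 0.05, adjusted p = 0.88, edgeR) and -0.26 from p.254V (95% interval -0.53 to 0.00, adjusted p = 0.85). Within each of the 5 replicate numbers the p.284R library was the lowest of the 3 genotypes in M1, in Il4ra as in Ifnar2. Both genes were singled out after the values were seen, and the share of all genes with such an order was not computed. Ifnar2 in M1 was not called against p.254I or p.254V (adjusted p = 0.95 and 0.97, edgeR). With the replicate number as a block the log2 difference of Il4ra was -0.20 from p.254I (SE 0.08, adjusted p = 0.37, edgeR) and -0.25 from p.254V (SE 0.08, adjusted p = 0.26), and neither was called. Ifngr1 in M2 had values of 179, 189, 277, 171 and 241 CPM in p.254I and 231, 273, 316, 233 and 232 CPM in p.254V, which overlapped, with a log2 difference of 0.28 (SE 0.12, unadjusted p = 0.027, adjusted p = 1.0, edgeR).

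The intervals give the range of differences that the data allow for each gene, without adjustment over genes. Calls were made after that adjustment, so the intervals do not give the size that a call would have needed. In M0 the log2 differences of the 10 members lay between -0.11 and 0.20, and their 95% intervals reached from -0.42 to 0.69. In M1 the intervals reached from -0.53 to 0.92 and in M2 from -0.87 to 0.89. The widest intervals were those of Il13ra1. For Ifnar1 the interval for p.284R against p.254I ran from -0.08 to 0.16 in M0, from -0.01 to 0.23 in M1 and from -0.12 to 0.12 in M2.

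**Figure D5:**
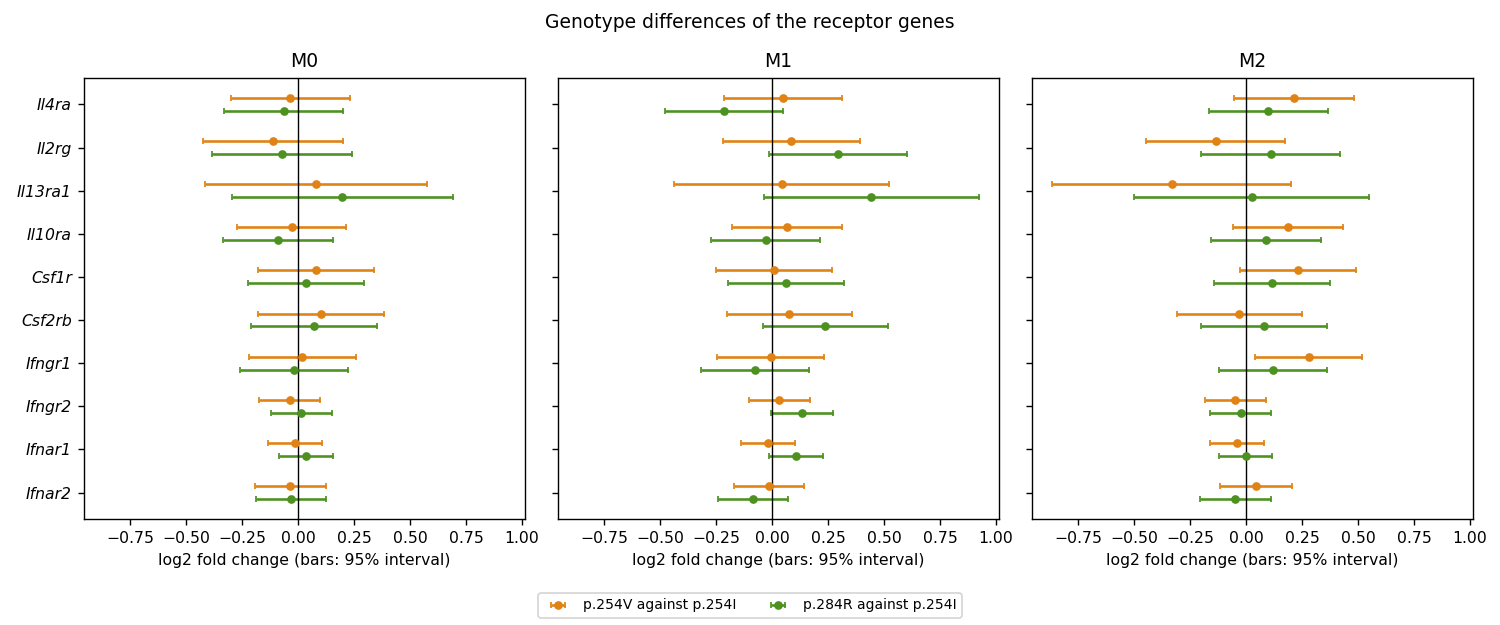
Log2 differences of p.254V (orange) and p.284R (green) from p.254I for each receptor gene in M0, M1 and M2, 5 mice a group, with bars that span the 95% interval. Only the interval of Ifngr1 for p.254V in M2 leaves out 0, and no difference passed adjustment over all genes.

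The rest of the receptor pathways gave the members a setting. Of 40 other cytokine receptor chains, 31 were tested, and in M1 11 were higher, 14 lower and 6 not called, and the median log2 fold change was -0.08. In M2 12 were higher, 11 lower and 8 not called, with a median of 0.03, beside -0.03 over all genes in either comparison. Il12rb1, the chain shared by the IL-12 and IL-23 receptors, rose from 1.32 ± 0.548 to 263 ± 15.1 CPM in M1 (SD, n = 15, log2 7.68, SE 0.15, adjusted p = 1.5e-34, edgeR). Il1rl1, the receptor of IL-33, fell from 13.1 ± 3.52 to 1.21 ± 1.17 CPM in M1 (log2 -3.60, SE 0.20, adjusted p = 3.0e-19, edgeR) and rose to 147 ± 26.8 CPM in M2 (log2 3.48, SE 0.16, adjusted p = 7.5e-22). Il20rb, a chain of the IL-20 receptor, rose in M2 by 3.07 on the log2 scale (SE 0.16, adjusted p = 4.7e-20). Chains that partner the shared γ chain did not all move alike. Il15ra rose in M1 (log2 2.91, SE 0.10) and fell in M2 (-0.70, SE 0.11), as did Il2ra (2.32, SE 0.23, and -1.42, SE 0.34). Il21r rose in both (1.38, SE 0.12, and 1.27, SE 0.12), and Il7r fell in both (-3.38, SE 0.08, and -0.43, SE 0.07). Il2rb rose in M1 (0.85, SE 0.33) and was not called in M2 (0.18, SE 0.36). Among these chains only Il7r fell in M1. Il13ra2, the other IL-13 receptor, did not pass the filter on low counts.

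Of 13 ligands, 9 were in the count table and 2 passed the filter. Csf1, the ligand of CSF1R, was at 13.4 ± 3.001 CPM in M0, 21.8 ± 2.08 in M1 and 40.5 ± 12.2 in M2 (SD, n = 15), and rose in both comparisons with M0 (log2 0.70, SE 0.11, and 1.59, SE 0.11), whereas Csf1r fell in both. Il10 was at 4.27 ± 1.66, 7.90 ± 2.57 and 0.686 ± 0.615 CPM in the same order, higher in M1 (log2 0.88, SE 0.20) and lower in M2 (-2.65, SE 0.24), the directions also seen in Il10ra.

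Among 14 kinases, STATs and SOCS inhibitors that act next to the receptors, 11 rose and 2 fell in M1, where the median log2 fold change was 1.30, and 5 rose and 7 fell in M2, with a median of -0.10. Socs1, an inhibitor of JAK signalling, rose from 1.10 ± 0.385 CPM to 178 ± 25.1 in M1 and 39.0 ± 5.45 in M2 (SD, n = 15, log2 7.33, SE 0.12, and 5.15, SE 0.11). Cish and Socs2, inhibitors best known downstream of STAT5, rose in M2 by log2 6.41 (SE 0.14) and 5.83 (SE 0.17), and Socs3 rose in M1 by 3.82 (SE 0.13). Jak3, the kinase bound by the γ chain, rose in M1 (log2 0.90, SE 0.07) and fell in M2 (-0.71, SE 0.07). Stat6, the factor activated by IL-4Rα, stood at -0.04 on the log2 scale in M1 (SE 0.05, adjusted p = 0.42) and fell slightly in M2 (-0.13, SE 0.05, adjusted p = 0.014). None of these lists held a gene called in a genotype comparison.

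Over the 45 libraries, the genes most like each member in log2 CPM were found by Pearson's r as a description. The libraries share mice and polarizations, which sets most of such a correlation. Il2rg lay closest to Psme2 and Psme1, subunits of the proteasome activator that IFN-γ induces (r = 0.992 and 0.989), and Il4ra closest to Trafd1 and Calhm6 (0.991 and 0.989). For Il10ra they were Arhgef3 and Tbc1d14 (0.991 and 0.990), for Csf1r Rxra and Gna12 (0.961 and 0.956) and for Csf2rb Smurf1 and Pim3 (0.973 and 0.968). Ifngr2 had no gene above 0.9, its closest being Atox1 (0.762), whereas Il4ra had 780 genes, Il10ra 662 and Il2rg 623 above that value.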

How the data were processed

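Bone marrow-derived macrophages of 15 mice (5 per Famin genotype) gave 45 RNA libraries, 3 from each mouse. Per the labels, libraries were TruSeq Stranded mRNA, read as single ends of 50 bases. The study's methods and the submitters' processing notes name FastQC, Trim Galore, HISAT2 (mm10) and limma, whereas the series description names Cutadapt and STAR. The counting tool, its annotation and its use of strand are not given in the sources used here.

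The authors deposited raw counts per Ensembl gene (29307 genes) without normalization, and a CPM table of 11900 genes. In the latter, the counts of each library were scaled to its total over those 11900 genes. Whole reads were recovered from 100% of CPM values (tolerance 0.01 reads), equalled the counts, and gave 9362 called genes for M1 against M0 and 9293 for M2 against M0. Symbols, coordinates (mm10) and exon lengths came from GENCODE vM21, which matched 29081 identifiers.

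The tests used edgeR 4.0.16 under R 4.3.3. filterByExpr over the 9 groups kept 12905 genes, all 10 members among them, library sizes were scaled by TMM (factors 0.939 to 1.10), and a robust quasi-likelihood model of the 9 groups was fitted. Each polarization entered its comparison as the mean of the 3 genotypes, and genotypes were compared within each polarization. Genotypes were also compared on counts summed per mouse (15 sums, 13555 genes), so that the 3 cultures of a mouse were not taken as independent. P-values were adjusted by Benjamini-Hochberg over all genes tested and called under 0.05. Intervals are at 95%, from the SE and the normal quantile. Printed CPM are TMM-scaled and log2 CPM used a prior count of 1. Genotype, polarization and replicate number were read from the labels, and a shared genotype and number was taken to mark cultures of the same mouse.

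Libraries that shared a number deviated together from their group means over 8614 genes. Pairs of genotypes had r over 0.1 in 15 of 15 in M0, 15 of 15 in M1 and 13 of 15 in M2. Their median r was 0.698, 0.501 and 0.419 in that order. Libraries of the same mouse in other polarizations had r over 0.1 in 38 of 45 pairs, with a median of 0.312. Pairs of the same mouse also share the number, so mouse and number are not separated here. Alternatives were DESeq2 1.42.0 size factors, the DESeq2 Wald test, limma-voom (limma 3.58.1), no filter (at least 1 count), at least 10 counts in every library, only the libraries compared, the mouse or number as a replicate block, leaving out each mouse, and the recovered reads, the last chosen after seeing the data. No pair of libraries was identical. Simulated counts held 200 changed genes, as a self-test of the code. Of these, 100% were called for M1 against M0 and 93.5% for p.284R against p.254I in M1. The share was 62.5% on summed counts and 87% for the interaction. How often a difference of the size seen in the members would be called was not tested. The members and gene lists were chosen with earlier results of these data known. All members are named, and of each other list those called genes with the largest log2 fold changes in size, whichever the sign. Also named are partner chains and, chosen after their values were seen, Il15ra, Il2ra, Il2rb, Il21r, Il7r, Csf2ra, Jak3 and Stat6. Another motif searched is not reported here.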

Additional observations from a re-analysis of the deposited data

Results flagged for a closer look

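In 2 of 90 groups of 5 libraries, 1 library of a receptor gene stood apart from the other 4 by Dixon's test, where chance gives about 1 in 20. Il2rg in M0 was at 90.5 CPM in the p.254I mouse of replicate 4 and between 53.6 and 59.9 CPM in the other 4. In that library the T and NK cell markers summed to 0.235 CPM, within the 0.136 to 0.594 CPM of the other 4. Il10ra in M2 was at 166 CPM in the p.254V mouse of replicate 3 and between 123 and 133 CPM in the other 4.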

How the results depend on the processing

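Across 23 alternatives (15 that left out 1 mouse, 8 of another kind) the number of members called was 8 to 9 for M1 against M0, with or without each mouse. It was 9 to 10 without each mouse and 10 otherwise for M2 against M0, 8 to 10 either way for M1 against M2, and 0 in every comparison between genotypes. The sign was followed for the members' polarization differences and those of the pathway genes named above other than Il2ra and Il2rb. It was also followed for the genotype differences of Il13ra1 and Il4ra in M1, and none of these changed sign. The calls that changed were those of Ifnar2 (M1 against M0), Ifnar1 (M2 against M0), Ifngr1 and Ifngr2 (both M1 against M2), whose log2 fold changes were all below 0.2 in size. Besides the mice named above, Ifnar2 passed with limma-voom (adjusted p = 0.0487) and with no filter (0.0435), and Ifngr1 did not pass with limma-voom (0.0507), no filter (0.0798) or only the libraries compared (0.0515). Ifngr2 did not pass with no filter (0.142). The cause was not tested. The replicate block gave 9 members for M1 against M0 and changed no other call of a member. DESeq2 size factors shifted the median of all genes by less than 0.01 on the log2 scale. With 5 mice a genotype, the p-values of the main model measure the spread between libraries within groups. That spread holds differences between mice, replicate numbers and cultures together, since the model has no term for any of them. Cultures of the same mouse entered the polarization comparisons unpaired.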
